A study of Mus musculus with 7 samples.

Results

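The cell division cycle was followed through 35 genes in endothelial cells of mouse kidneys: 3 D-type cyclins, 2 E-type cyclins, 10 genes of S phase and 20 genes of mitosis. They were chosen by symbol, all 35 were found among the 26558 named genes of the table, and none had more than 1 entry. The cells came from 3-month-old male C57BL/6 mice and were pulled from kidney with magnetic beads against Cd31, and their RNA was extracted at once, with no culture. The mutant group holds 4 libraries from Hoxb7-Cre-GFP mice with floxed Vhlh alleles (Hoxb7-Cre-GFP; VhlhloxP/loxP), and the wildtype group holds 3 libraries from Hoxb7-Cre-GFP mice without them, so both groups carry the Cre and GFP transgene. Vhlh encodes the von Hippel-Lindau protein, and the labels call its loss specific to the tubule, so the cells measured here are neighbours of the targeted ones. Whether each library is a separate animal is not stated, so each p-value is set against the spread of these libraries, which may be technical. Levels are given in FPKM, a unit that counts the fragments of a gene against its length and against the fragments of the library.

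A cell that enters division passes from G1 into S phase, where DNA is copied, and then through G2 into mitosis, where the copies are parted. D-type cyclins couple growth signals to the start of the cycle and are also made by many resting cells. Genes for DNA replication are switched on by E2F factors at the border of G1 and S, and most mitotic genes later, through promoter elements called CHR and CCAAT that the B-Myb, FoxM1 and NF-Y proteins use. Most endothelial cells of an adult kidney are at rest.

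No member was called different between mutant and wildtype isolates. Of the 35 members 24 had a mean of at least 1 FPKM over the 7 libraries and were tested with limma on log2(FPKM + 1), and at a Benjamini-Hochberg adjusted p under 0.05 0 were called, against 16.1% of all 13420 tested genes, 8.76% higher and 7.34% lower. The smallest adjusted p was 0.0727, for Pcna. At an unadjusted p under 0.05 stood 3 of the 24, Pcna, Rrm2 and Mcm4, against 32.4% of all tested genes. The groups did not overlap for 3 of the 24, Pcna, Mcm4 and Tyms, each with the mutant libraries above, against 18.9% of all tested genes with mutant above and 12.5% with mutant below. With no filter on low values all 35 could be fitted, and 0 were called (smallest adjusted p = 0.0795, for Ccne2) against 8.96% of 21580 genes. In that fit 4 members were at an unadjusted p under 0.05, against 25.2% of its genes.

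The mitotic genes differed widely among libraries of the same group, and did so as a block. All 20 mitotic genes had their highest value of all 7 libraries in mutant 2, and all 20 had their highest wildtype value in wildtype 3. Of the 20, 18 had their lowest mutant value in mutant 3. The high libraries were not particular to mitotic genes. Of the 10 S-phase genes 9 had their highest mutant value in mutant 2 and 8 their highest wildtype value in wildtype 3. Both of the 2 E-type cyclins were also highest in mutant 2.

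**Figure D1:**
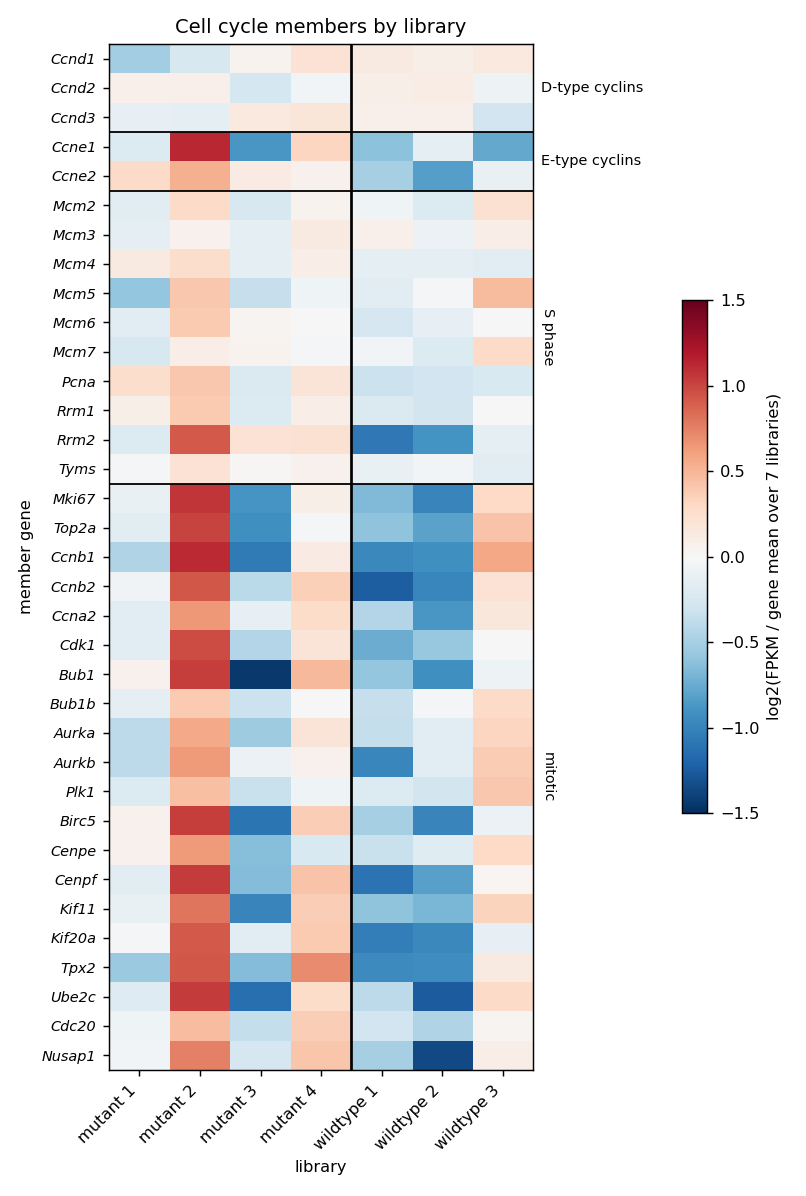
Level of each of the 35 members (rows, by class) in each library (columns, mutant left of wildtype), as log2 of its FPKM over the gene's mean in the 7 libraries; red is above and blue below that mean. The mitotic block is red throughout in mutant 2 and blue or pale in mutant 3, wildtype 1 and wildtype 2.

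The D-type cyclins, the partners of Cdk4 and Cdk6 in G1, were abundant, with means of 21.4 to 53.0 FPKM over the 7 libraries, and 0 of 3 were called. Ccnd1 was at 36.8, 44.8, 54.8 and 61.6 FPKM in mutant 1 to 4, against 58.2, 56.2 and 58.4 FPKM in wildtype 1 to 3. The mutant libraries were spread widely and mutant 4 was above every wildtype library, so the groups overlapped. The log2 fold change was -0.24 (standard error 0.165, 95% interval -0.62 to 0.14, limma adjusted p = 0.356). Ccnd2 averaged 20.9 ± 2.21 FPKM in mutant and 22.1 ± 1.47 FPKM in wildtype libraries, and Ccnd3 averaged 34.1 ± 4.0 FPKM in mutant and 32.7 ± 4.52 FPKM in wildtype libraries (SD, n = 4 and 3). Neither differed beyond the spread between libraries, with 95% intervals of -0.31 to 0.15 for Ccnd2 and -0.23 to 0.35 for Ccnd3. Ccnd3 has a pseudogene copy in GENCODE M21, Ccnd3-ps, and reads may be shared between them.

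The E-type cyclins, which activate Cdk2 at the entry into S phase, lay under 1 FPKM in all libraries and entered no test. Ccne1 was at 0.392, 0.994, 0.247 and 0.567 FPKM in mutant 1 to 4, against 0.295, 0.412 and 0.266 FPKM in wildtype 1 to 3. Its mutant 3 value was the lowest of all 7 and its mutant 2 value the highest. Ccne2 was at 0.293, 0.349, 0.262 and 0.251 FPKM in mutant 1 to 4, against 0.171, 0.136 and 0.222 FPKM in wildtype 1 to 3. All 4 mutant libraries were above the 3 wildtype libraries, and the fit with no filter did not call the gene (limma adjusted p = 0.0795).

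All 10 S-phase genes were tested, with means of 2.19 to 71.9 FPKM over the 7 libraries, and 0 were called. Their median log2 fold change was 0.16, beside 0.039 over all tested genes, with single genes from -0.18 to 0.64, and 6 were positive and 4 negative. With libraries scaled on the endothelial markers, a setting added after the data were seen, the S-phase median was -0.16 beside -0.28 over all tested genes. Pcna encodes the sliding clamp that holds DNA polymerases on the template and was the most abundant member. It was at 86.4, 95, 62.0 and 82.2 FPKM in mutant 1 to 4, against 57.3, 59.1 and 61.2 FPKM in wildtype 1 to 3. Mutant 3 was close to the wildtype libraries and the other 3 mutants well above them. The mean was 81.4 ± 14.0 FPKM (SD, n = 4) in mutant and 59.2 ± 1.96 FPKM (SD, n = 3) in wildtype libraries, a log2 fold change of 0.44 (standard error 0.140, 95% interval 0.11 to 0.76, limma adjusted p = 0.0727). Without mutant 3 Pcna was called higher, with a log2 fold change of 0.56 (limma adjusted p = 0.00854). That fit called 2 of 25 tested members, Pcna and Mcm4, beside 1205 genes higher and 1085 lower of all 13404 tested. Pcna-ps1 and Pcna-ps2 are pseudogene copies in GENCODE M21 that may share its reads.

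Rrm2, the small subunit of ribonucleotide reductase that is made in S phase, was at 1.90, 4.13, 2.54 and 2.56 FPKM in mutant 1 to 4, against 1.04, 1.18 and 1.99 FPKM in wildtype 1 to 3. Only mutant 1 lay below a wildtype library, wildtype 3. The log2 fold change was 0.64 (standard error 0.213, 95% interval 0.15 to 1.14, limma adjusted p = 0.0801). Leaving out mutant 2 and wildtype 3 together, a setting added after the data were seen, gave 0.65 and a call (limma adjusted p = 0.0477). Rrm1, the large subunit of the same enzyme, averaged 8.40 ± 1.42 FPKM in mutant and 6.97 ± 0.745 FPKM in wildtype libraries (SD, n = 4 and 3), and the groups overlapped. Tyms, thymidylate synthase, was at 5.02, 5.93, 5.17 and 5.36 FPKM in mutant 1 to 4, against 4.73, 4.95 and 4.59 FPKM in wildtype 1 to 3. The mutant libraries were above the wildtype ones by a small step, and the log2 fold change of 0.14 had a 95% interval of -0.03 to 0.32.

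The Mcm2 to Mcm7 proteins form the ring-shaped helicase that opens DNA ahead of the replication fork, and as a unit their genes showed no common direction. Mcm4 was at 9.70, 10.6, 8.07 and 9.47 FPKM in mutant 1 to 4, against 7.98, 8.07 and 7.91 FPKM in wildtype 1 to 3. Mutant 3 and wildtype 2 had the same value to 3 digits, and the other mutants were higher. The log2 fold change was 0.21 (standard error 0.0920, limma adjusted p = 0.151), and without mutant 3 it was 0.28 and called (limma adjusted p = 0.0425). The other 5 genes overlapped between the groups. Mcm2 averaged 5.41 ± 0.908 FPKM in mutant and 5.41 ± 0.850 FPKM in wildtype libraries, and Mcm5 averaged 3.42 ± 1.05 FPKM in mutant and 3.98 ± 0.954 FPKM in wildtype libraries (SD, n = 4 and 3). Mcm3 had a log2 fold change of -0.046, Mcm6 of 0.17 and Mcm7 of -0.035, with limma adjusted p from 0.389 to 0.875. The 95% intervals of these 5 genes kept the log2 fold change between -0.64, the lower bound of Mcm5, and 0.47, the upper bound of Mcm6.

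**Figure D2:**
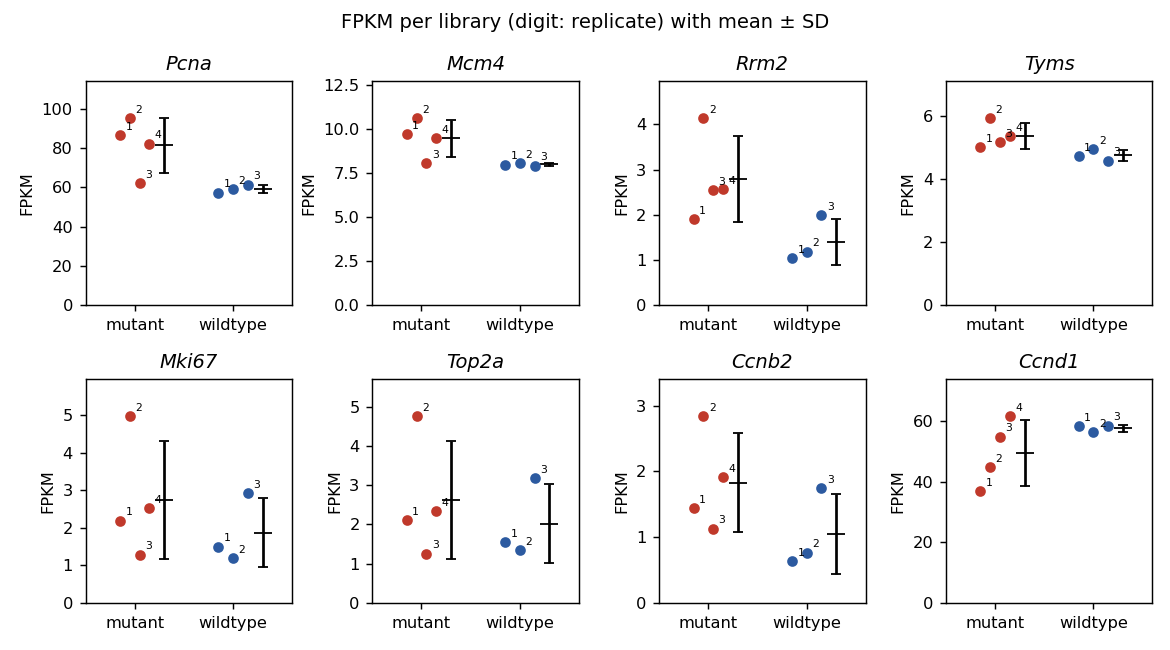
FPKM of 8 members in each library, mutant libraries in red and wildtype libraries in blue, with the replicate number beside each point and the mean and SD as a black bar; all axes start at 0. Pcna, Mcm4, Rrm2 and Tyms have most mutant points above wildtype, while Mki67, Top2a and Ccnb2 are drawn apart by mutant 2 and wildtype 3. These S-phase genes do not stand for their class: the 4 with a negative log2 fold change, Mcm2, Mcm3, Mcm5 and Mcm7, are not drawn.

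The mitotic genes were low, with means of 0.324 to 2.39 FPKM over the 7 libraries. Of the 20 genes 11 were tested and 0 called. The other 9, Ccnb1, Bub1, Aurkb, Plk1, Cenpe, Cenpf, Kif11, Kif20a and Tpx2, had a mean under 1 FPKM. Mki67, the gene of the proliferation antigen Ki-67, was at 2.19, 4.98, 1.28 and 2.52 FPKM in mutant 1 to 4, against 1.5, 1.19 and 2.92 FPKM in wildtype 1 to 3. Wildtype 3 exceeded 3 of the 4 mutant libraries. The log2 fold change was 0.34 (standard error 0.331, 95% interval -0.43 to 1.11, limma adjusted p = 0.523). Top2a, the topoisomerase that untangles sister chromatids, was at 2.10, 4.76, 1.25 and 2.34 FPKM in mutant 1 to 4, against 1.55, 1.35 and 3.17 FPKM in wildtype 1 to 3. It showed the same order at the top, mutant 2 and then wildtype 3, and its log2 fold change was 0.22 (95% interval -0.54 to 0.98). Without mutant 2 the log2 fold change of Top2a was -0.033.

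The cyclins and the kinase of mitotic entry followed that pattern. Cdk1, the kinase that starts mitosis, was at 1.12, 2.47, 0.929 and 1.44 FPKM in mutant 1 to 4, against 0.751, 0.848 and 1.25 FPKM in wildtype 1 to 3. Of its partners, Ccnb2 was at 1.44, 2.84, 1.13 and 1.91 FPKM in mutant 1 to 4, against 0.633, 0.761 and 1.74 FPKM in wildtype 1 to 3. In both genes mutant 1 and mutant 3 lay between the lower wildtype libraries and wildtype 3. The log2 fold change was 0.32 for Cdk1 (limma adjusted p = 0.328) and 0.47 for Ccnb2 (limma adjusted p = 0.232). Ccna2, a cyclin of S phase and G2, averaged 2.32 ± 0.647 FPKM in mutant and 1.63 ± 0.601 FPKM in wildtype libraries, and Ccnb1 averaged 0.766 ± 0.513 FPKM in mutant and 0.577 ± 0.383 FPKM in wildtype libraries (SD, n = 4 and 3). Ccnb1 and Ccnb2 also have pseudogene copies, Ccnb1-ps and Ccnb2-ps.

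Genes of the spindle, of the spindle checkpoint and of mitotic exit had the same high libraries but not the same size of difference. Bub1, a checkpoint kinase, was at 0.389, 0.761, 0.136 and 0.522 FPKM in mutant 1 to 4, against 0.250, 0.196 and 0.352 FPKM in wildtype 1 to 3. Its mutant libraries spanned 5.58-fold, the widest span of any member, and the wildtype libraries lay inside it. Its relative Bub1b, by contrast, averaged 1.78 ± 0.388 FPKM in mutant and 1.77 ± 0.388 FPKM in wildtype libraries (SD, n = 4 and 3). Plk1, a kinase of spindle assembly, averaged 0.844 ± 0.219 FPKM in mutant and 0.852 ± 0.229 FPKM in wildtype libraries, and Aurka, another spindle kinase, averaged 1.05 ± 0.375 FPKM in mutant and 1.00 ± 0.249 FPKM in wildtype libraries. Kif20a, a kinesin of cytokinesis, was at 0.777, 1.48, 0.699 and 1.03 FPKM in mutant 1 to 4, against 0.383, 0.403 and 0.723 FPKM in wildtype 1 to 3. Only mutant 3 lay below a wildtype library, and the ratio of the group means, 1.98, was the largest among the mitotic genes. Ube2c and Cdc20, which serve the ubiquitin ligase of mitotic exit, were highest in mutant 2 at 4.16 and 3.30 FPKM and in wildtype 3 among wildtype libraries at 2.46 and 2.46 FPKM. Aurkb and Birc5 of the chromosomal passenger complex, Cenpe and Cenpf of the kinetochore and Kif11, Tpx2 and Nusap1 of the spindle had ratios of group means from 1.06, for Cenpe, to 1.81, for Cenpf.

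**Figure D3:**
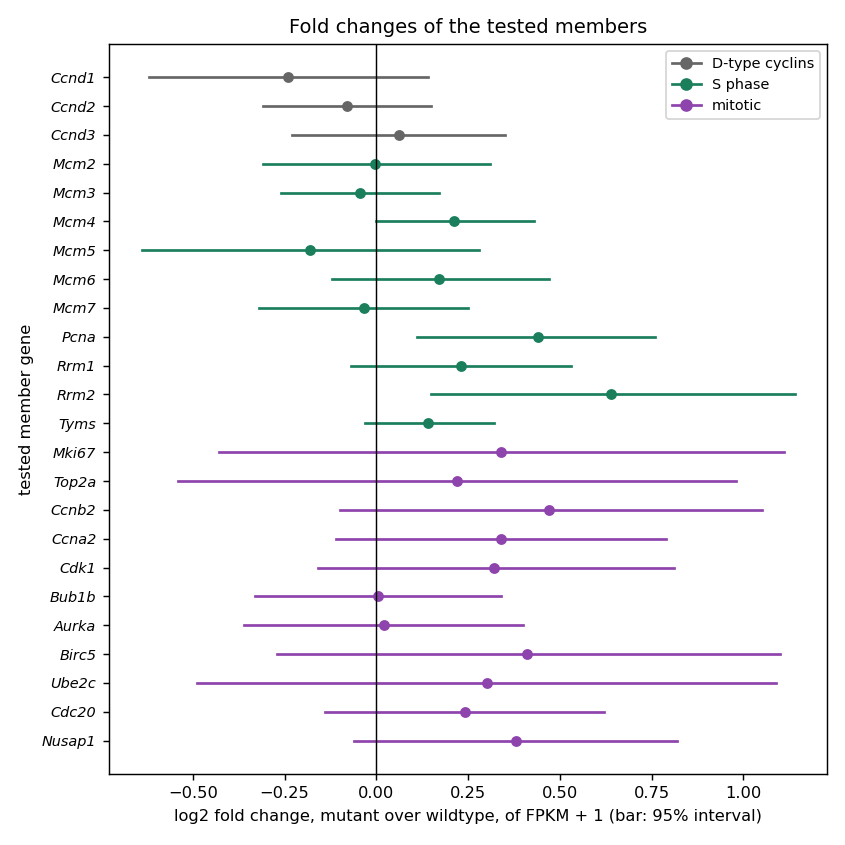
Log2 fold change, mutant over wildtype, of the 24 tested members (points) with 95% intervals (bars) from limma on log2(FPKM + 1), coloured by class. Only Pcna, Rrm2 and Mcm4 have intervals that clear or touch 0 from above, and the mitotic intervals are the widest, up to that of Ube2c at -0.49 to 1.09.

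S-phase and mitotic genes were set side by side by the ratio of group means, mutant over wildtype, with no test between the classes. The median ratio was 1.43 over the 20 mitotic genes and 1.14 over the 10 S-phase genes, and it was 0.947 over the 3 D-type cyclins. Of the 20 mitotic genes 19 had a ratio above 1, all but Plk1, and of the 10 S-phase genes 6 did. Of the tested mitotic genes 11 of 11 had a positive log2 fold change, with a median of 0.32, against 9 of 11 after median-of-ratios scaling and 7 of 12, with a median of 0.07, on the endothelial scaling. Over all tested genes 7628 of 13420 had a positive log2 fold change in the main fit. The mitotic genes shared their high libraries, so their signs are not independent of one another. The spread within groups differed in the same way. The highest mutant library exceeded the lowest by a median of 2.58-fold over the mitotic genes and 1.46-fold over the S-phase genes, beside 1.31-fold over all tested genes. Among wildtype libraries these medians were 2.04-fold over the mitotic genes, 1.2-fold over the S-phase genes and 1.19-fold over all tested genes. The sets were not at like levels, and the mitotic one includes genes under the filter. The median of the gene means was 1.07 FPKM for mitotic genes, 8.05 FPKM for S-phase genes and 9.38 FPKM for all tested genes. The part of this level in the spread was not tested.

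The mitotic ratio depended on which libraries were kept. Without mutant 2 the median ratio was 1.12 and 14 of the 20 genes were above 1. Without wildtype 3 it was 1.91 with all 20 above 1, and without both it was 1.46 with all 20 above 1. The S-phase median moved less, to 1.07 without mutant 2, 1.15 without wildtype 3 and 1.09 without both.

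The level of a class in a library was also summarised as the median over its genes of FPKM over the gene's mean in the 7 libraries. For the mitotic genes this was 0.897, 1.89, 0.668 and 1.21 in mutant 1 to 4, against 0.666, 0.559 and 1.19 in wildtype 1 to 3. For the S-phase genes it was 0.899, 1.27, 0.907 and 1.06 in mutant 1 to 4, against 0.900, 0.892 and 1.00 in wildtype 1 to 3. Both classes were highest in mutant 2 and next in mutant 4, and in both wildtype 3 led its group.

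The members' promoters were searched for known cell cycle elements, as a description only, and 4 are shown with the matches in capitals. Windows of 300 bases, from 250 before to 50 after the start of the gene, were taken from RefSeq on the GRCm38.p6 build, which is mm10, and 27 of the 35 members had one. Both strands were searched for CHR letters (TTTGAA or TTCGAA), the CCAAT box (CCAAT) and E2F letters (TTTGGCGC, TTTCCCGC, TTTGGCGG or TTTCGCGC). The first windows are of mitotic genes with CHR and CCAAT letters, and that of Mcm6 stands for the S-phase genes with E2F letters. All 4 genes lie on the minus strand, and their windows are at chr9:70421505-70421804 for Ccnb2, chr11:99024140-99024439 for Top2a, chr4:118437294-118437593 for Cdc20 and chr1:128359656-128359955 for Mcm6. In the Mcm6 window a TTTGGCGC and the reverse complement of TTTCGCGC overlap.
Ccnb2: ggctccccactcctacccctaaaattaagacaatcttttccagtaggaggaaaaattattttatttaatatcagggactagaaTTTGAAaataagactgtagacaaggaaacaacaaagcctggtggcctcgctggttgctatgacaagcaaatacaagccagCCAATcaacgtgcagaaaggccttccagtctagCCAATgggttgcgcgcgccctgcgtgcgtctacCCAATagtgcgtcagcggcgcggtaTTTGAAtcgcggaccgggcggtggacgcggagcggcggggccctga
Top2a: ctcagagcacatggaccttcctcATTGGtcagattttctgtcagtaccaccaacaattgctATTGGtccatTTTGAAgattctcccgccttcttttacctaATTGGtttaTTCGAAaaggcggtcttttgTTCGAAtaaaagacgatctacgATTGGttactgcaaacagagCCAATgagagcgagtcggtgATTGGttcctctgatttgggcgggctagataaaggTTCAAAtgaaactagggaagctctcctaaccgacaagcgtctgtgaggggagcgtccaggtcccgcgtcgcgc
Cdc20: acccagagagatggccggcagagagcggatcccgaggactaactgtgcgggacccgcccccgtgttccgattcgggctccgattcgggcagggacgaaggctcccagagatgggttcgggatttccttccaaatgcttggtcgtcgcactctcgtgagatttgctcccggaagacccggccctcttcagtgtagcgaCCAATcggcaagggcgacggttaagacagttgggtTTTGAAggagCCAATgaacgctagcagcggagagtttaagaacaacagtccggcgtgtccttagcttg
Mcm6: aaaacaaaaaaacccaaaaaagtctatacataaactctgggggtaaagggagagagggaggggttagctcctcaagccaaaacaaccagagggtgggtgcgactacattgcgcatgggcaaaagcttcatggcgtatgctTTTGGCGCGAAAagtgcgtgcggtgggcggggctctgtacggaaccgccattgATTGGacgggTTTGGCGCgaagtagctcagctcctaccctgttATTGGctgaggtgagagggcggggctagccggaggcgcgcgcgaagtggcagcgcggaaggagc

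CHR letters were found in 12 of the 16 mitotic windows and 2 of the 9 S-phase genes with a window, against 21.7% of all 27025 genes with a window. The CCAAT letters were in 14 of 16 mitotic and 8 of 9 S-phase genes, against 41.1% of all. The E2F letters were in 1 of 16 mitotic and 4 of 9 S-phase genes, Mcm3, Mcm5, Mcm6 and Mcm7, against 2.7% of all. Short letters occur by composition alone, so a match is a description of the window and not evidence of binding. The mitotic genes without CHR letters in the window were Ccnb1, Birc5, Cenpe and Nusap1. Since all 20 mitotic genes were highest in mutant 2, that library cannot set these genes apart from those with CHR letters. The part of these elements in the shared pattern was not tested.

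Beyond the members, 8 further lists of cell cycle genes were read: 176 genes, of which 175 were found and 135 tested. Of these 6 were called higher and 2 lower, which is 5.93% of the 135 beside 16.1% of all tested genes. Among 18 tested genes of spindle, kinetochore and cytokinesis 0 were called, with 3 at an unadjusted p under 0.05. The same holds for 12 genes of nucleotide supply and S-phase chromatin (0 called, 2 at that p), for 12 condensin and cohesin genes (0 and 3) and for 22 genes of the APC/C and SCF ubiquitin ligases (0 and 6). The median log2 fold changes of these 4 lists were 0.11, 0.13, 0.12 and 0.052.

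Of 12 tested kinases of the cycle and their regulators 3 were called higher and 1 lower. Cdk6, a G1 kinase that D-type cyclins activate, fell to 4.15, 3.27, 3.38 and 2.56 FPKM in mutant 1 to 4, against 6.92, 7.11 and 11.8 FPKM in wildtype 1 to 3. Every mutant library was below every wildtype library, with a log2 fold change of -1.12 ± 0.193 (standard error) and a limma adjusted p of 0.00859, and the call held in each fit that left out 1 library. Wee1, the kinase that holds Cdk1 inactive, rose to 7.55, 6.87, 4.84 and 5.92 FPKM in mutant 1 to 4, against 3.41, 3.60 and 3.41 FPKM in wildtype 1 to 3. The mutant libraries were all higher, with a log2 fold change of 0.69 ± 0.130 (standard error) and a limma adjusted p of 0.0125, and the call was lost without wildtype 2 (limma adjusted p = 0.0507). Cks1b, a small binding partner of these kinases, rose by 0.56 and Cdk2, the S-phase kinase, by 0.29 (limma adjusted p = 0.0448 and 0.0497). The Cks1b call was lost without mutant 1, mutant 2, mutant 4, wildtype 1 or wildtype 2 (largest adjusted p = 0.164), and the Cdk2 call without any 1 of the 7 libraries (largest 0.138). Of 6 tested CDK inhibitors 1 was called: Cdkn2d, the inhibitor p19 of Cdk4 and Cdk6, was at 23.1 ± 2.11 FPKM in mutant and 16.0 ± 2.65 FPKM in wildtype libraries (SD, n = 4 and 3, log2 fold change 0.51, limma adjusted p = 0.0301). That call was lost without mutant 2, mutant 4, wildtype 1 or wildtype 3 (largest adjusted p = 0.0788).

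In the list of origins and forks 2 of 34 tested genes were called, in opposite directions. Timeless, a fork protection factor, rose to 19.2, 18.1, 12.9 and 18.2 FPKM in mutant 1 to 4, against 10.9, 11.7 and 8.26 FPKM in wildtype 1 to 3. All mutant libraries were higher, with a log2 fold change of 0.68 (limma adjusted p = 0.0276). Pold1, the catalytic subunit of DNA polymerase delta, fell to 5.0 ± 0.828 FPKM in mutant libraries, against 7.04 ± 0.158 FPKM in wildtype libraries (SD, n = 4 and 3, log2 fold change -0.43, limma adjusted p = 0.0362). Of 19 tested E2F, pocket protein and DREAM genes 1 was called, Lin54, the DNA-binding subunit of the DREAM complex that recognises CHR elements, which rose by 0.35 (limma adjusted p = 0.0471). Each of these 3 calls was lost without any 1 library other than mutant 3, with largest adjusted p of 0.0872 for Timeless, 0.130 for Pold1 and 0.170 for Lin54. With libraries scaled on the endothelial markers the 6 higher calls of these lists were lost (limma adjusted p from 0.108 to 0.821), and rescaling to the same total ended the calls of Pold1, Lin54, Cks1b, Cdk2 and Cdkn2d (0.0544 to 0.199). Foxm1, an activator of mitotic genes, was at 1.49 ± 0.339 FPKM in mutant and 1.02 ± 0.145 FPKM in wildtype libraries and was not called (limma adjusted p = 0.159). Of the 19 tested genes of its list 11 had a positive and 8 a negative log2 fold change. Among the negative ones were E2f1 at -0.44 and E2f2 at -0.41 (limma adjusted p = 0.158 and 0.0527). E2f7 averaged under 1 FPKM and was called higher in the fit with no filter (limma adjusted p = 0.0142). Foxm1 and these E2F genes are named here after their values were seen.

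The isolates held other cells than endothelium, and marker lists differed between libraries, some with the order of the mitotic genes and some not. All 12 endothelial markers were detected and 4 were called higher. Their summed level was 2570 to 3018 FPKM in mutant and 1752 to 2544 FPKM in wildtype libraries, lowest in mutant 2 and in wildtype 3. Pecam1, the gene of Cd31, averaged 354 ± 33.6 FPKM in mutant and 247 ± 41.8 FPKM in wildtype libraries (SD, n = 4 and 3), a call lost without mutant 1, mutant 2, mutant 4, wildtype 2 or wildtype 3 (largest adjusted p = 0.114). Cdh5, the endothelial cadherin, averaged 157 ± 15.2 FPKM in mutant and 107 ± 18.6 FPKM in wildtype libraries (SD, n = 4 and 3, limma adjusted p = 0.0316), a call lost in all fits that left out 1 library except those without mutant 3 or wildtype 1 (largest adjusted p = 0.093). Of 13 macrophage and dendritic cell markers 12 fell, among them Csf1r and Emr1, which are a growth factor receptor and a surface antigen of these cells, by 2.0 and 2.22 on the log2 scale (limma adjusted p = 0.00415 and 0.00287). Their summed level was 626, 1392, 670 and 699 FPKM in mutant 1 to 4, against 2566, 3491 and 4157 FPKM in wildtype 1 to 3, so mutant 2 and wildtype 3, the libraries with the most mitotic RNA in each group, also had the most of it in each group. Ptprc, the gene of the leukocyte antigen CD45, fell by 1.28 on the log2 scale (limma adjusted p = 0.00157), and Cdk6 was, like the sum of these markers, lower in every mutant than in every wildtype library. Of the 5 red cell genes found 0 of 3 tested were called, and their summed level was 36.9, 65.8, 40.2 and 53.5 FPKM in mutant 1 to 4, against 18.2, 13.7 and 39.9 FPKM in wildtype 1 to 3. Of 7 neutrophil markers, with Elane listed at 0 in every library, 1 of 3 tested was called higher, and the sums were 15.1 to 110 FPKM in mutant, highest in mutant 2, and 22.3 to 80.2 FPKM in wildtype libraries, highest in wildtype 3. The called gene was Ltf, at a log2 fold change of 0.69. S100a8 and S100a9 went the other way, at -1.07 and -0.77, not called (limma adjusted p = 0.407 and 0.504). Of 6 proximal tubule markers 0 were called, with sums of 173 to 527 FPKM in mutant and 266 to 538 FPKM in wildtype libraries, highest in mutant 4 and in wildtype 3. All 6 markers of injured tubule were called higher, with sums of 138 to 191 FPKM in mutant and 57.6 to 60.9 FPKM in wildtype libraries, highest in mutant 2 and in wildtype 3. The summed T and NK cell markers were at 22.7 to 39.6 FPKM in mutant and 26.4 to 33.4 FPKM in wildtype libraries, and 1 of 7 tested was called higher and 1 lower. The B and plasma cell markers were at 30.3 to 55.3 FPKM in mutant and 57.7 to 73.9 FPKM in wildtype libraries, and 2 of 5 were called lower. Markers of distal nephron and collecting duct were at 1721 to 2677 FPKM in mutant and 1427 to 1663 FPKM in wildtype libraries, with 2 of 7 called higher. Most of that was Umod, at 1371 to 2179 FPKM in mutant and 1055 to 1279 FPKM in wildtype libraries. Of the 7 genes 5 had a positive log2 fold change, while Aqp2 and Aqp3 were at -1.22 and -0.67, not called (limma adjusted p = 0.0711 and 0.133). Markers of pericytes and smooth muscle were at 103 to 115 FPKM in mutant and 110 to 153 FPKM in wildtype libraries, with 0 of 6 called. Each of these 4 sums was lowest among mutant libraries in mutant 2, and wildtype 3 was the highest wildtype library in none of them. The part of these cells in the levels of the cell cycle genes was not tested. In such mixed RNA a difference in the number of dividing cells and one in the RNA per dividing cell cannot be told apart.

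**Figure D4:**
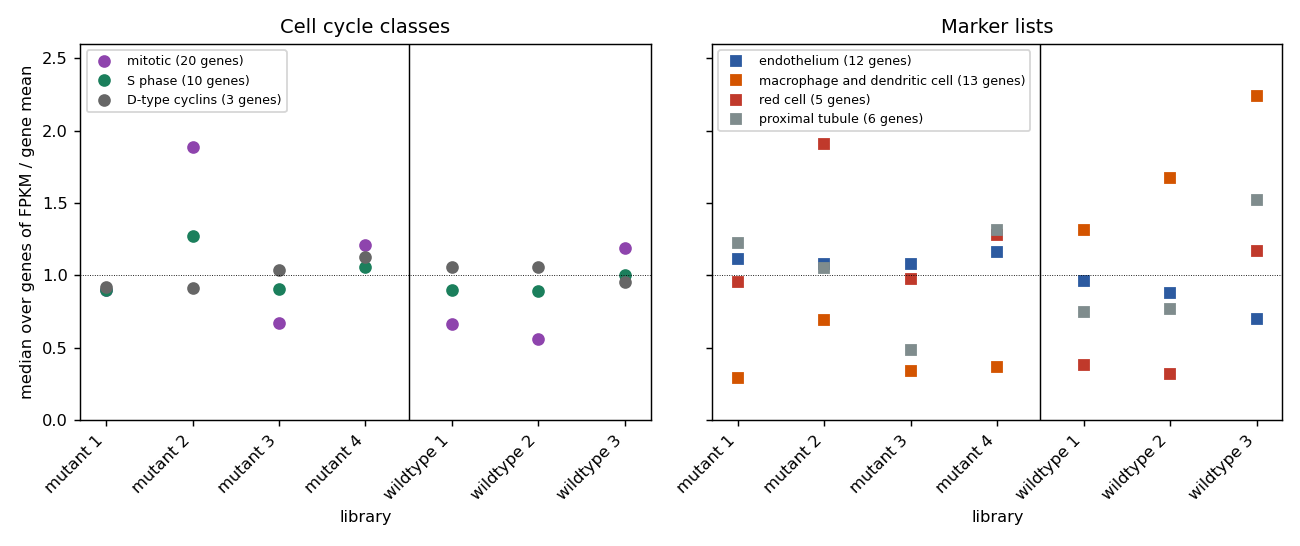
Median over genes of FPKM over the gene's 7-library mean, in each library (mutant left of wildtype), for 3 cell cycle classes (left) and 4 marker lists (right). The mitotic points range from 0.559 in wildtype 2 to 1.89 in mutant 2, and the macrophage and dendritic cell points lie from 0.290 to 0.693 in mutant and from 1.31 to 2.24 in wildtype libraries.

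Across the whole table limma called 1176 genes higher and 985 lower in mutant, so 54.4% of calls were higher, against 41.7% with libraries rescaled to equal totals and 42.0% under median-of-ratios scaling. Read totals are not given by FPKM, and the spacing of the lowest values put wildtype 3 at 0.708 of the depth of wildtype 1, with all others between. Vhl itself was at 6.00 ± 0.387 FPKM in mutant and 7.24 ± 0.861 FPKM in wildtype libraries (SD, n = 4 and 3, limma adjusted p = 0.123), which is no check of a deletion made in another cell type.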

How the data were processed

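The 4 mutant and 3 wildtype libraries were grouped by sample title. They were stranded poly(A) libraries read as 150 bp pairs, per the labels' protocols. Trimmomatic 0.39, Bowtie2 2.3.4.1 and RSEM 1.2.28 appear in the submitters' processing notes beside mm10 as the build, with no statement of what each did. The deposited values are FPKM, per the file headers. Annotation, strand setting and scaling between libraries: not given in the sources used here. Hence reads of antisense, overlapping or near-identical genes may be mixed.

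Of 27014 entries, 429 without a gene name (18.35 to 29.26% of the FPKM total) were dropped and 27 repeated symbols summed; 0 columns were unmapped. Among entries under 0.3 FPKM, 34.3 to 37.9% stood to wildtype 1 as whole reads up to 4 do (tolerance 0.01 log2), too few to recover counts, so only relative depth is known and no count model was used. Correlations between libraries of a group were 0.947 to 0.978 over genes, and genes are no replicates.

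In R 4.3.3, limma 3.58.1 was fitted to log2(FPKM + 1) of genes averaging at least 1 FPKM (empirical Bayes with an intensity trend, group as the only term, two-sided), and a Benjamini-Hochberg adjusted p under 0.05 was a call. Fold changes are on that scale and understate those of low genes. The fit was tested on simulated data, with changes placed only in more abundant genes, so that test does not cover the low mitotic genes and E-type cyclins. Coordinates count from 1.

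The members and lists were chosen with earlier results of these data known. Named genes were the 35 members, called genes of the 8 other cell cycle lists (at most the 4 with the smallest p in each), Pecam1, Cdh5, Ptprc, Csf1r, Emr1 and Vhl. Alternatives were pseudocounts of 0.1 and 0.5, no filter, a mean of at least 5 FPKM, same-total, median-of-ratios and quantile scaling, array weights, no trend, a replicate block, other phase classes and leaving out each library. Scaling on the endothelial markers and leaving out mutant 2 with wildtype 3 were added after seeing the data.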

Additional observations from a re-analysis of the deposited data

Results flagged for a closer look

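None of the 49 named genes had a mutant library farther from the other 3 than Dixon's limit for 4 values. Mutant 2 was the highest library for all 20 mitotic genes without any single gene passing that limit. The 3 wildtype libraries are too few for this check.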

How the results depend on the processing

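Values are FPKM without read totals, 9 mitotic genes and both E-type cyclins lie under the filter, and 4 against 3 libraries leave wide intervals for low genes. No member was called under either pseudocount, either filter, same-total, median-of-ratios or quantile scaling, without the trend or with the replicate block. Array weights gave 6 of 24 tested members called higher (Pcna, Mcm4, Rrm1, Rrm2, Ccnb2 and Nusap1), 4 of S phase and 2 mitotic. That fit called 2258 genes higher and 1812 lower of all 13420 tested, and 0 members lower. The share called in either direction was larger among all genes than among the members. The share called higher was larger among the members. Leaving out mutant 2 and wildtype 3 gave 1 of 22 tested members called higher, Rrm2 of S phase, with 306 genes higher and 630 lower of all 13401 tested. Scaling on the endothelial markers moved the median log2 fold change of all genes by over 0.1, to -0.28, and gave 179 genes higher and 2628 lower of 13446 tested. On that scale the S-phase median was -0.16 and the mitotic median 0.07, both above that of all genes. There 1 of 25 tested members, the D-type cyclin Ccnd1, was called lower, at -0.60 with a limma adjusted p of 0.0499. Rescaling to the same total gave 576 genes higher. No mitotic gene passed a mean of 5 FPKM, so that setting gave no mitotic median. With other phase classes, E-type cyclins and Ccna2 joined S phase and Mki67, Top2a and Cdk1 were dropped, and 0 members were called.

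Leaving out 1 library at a time gave 324 to 1205 genes higher and 521 to 1085 lower, 0 to 2 members called higher, 0 to 2 of S phase (Pcna and Mcm4, without mutant 3), 0 mitotic, and medians of 0.09 to 0.19 for S phase and 0.15 to 0.52 for mitotic genes, the lowest of both without mutant 2.

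The replicate numbers are shared by the labels of both groups, which do not say whether they pair the samples. Same-numbered libraries had correlations of their deviations of -0.06, 0.03 and -0.28, beside -0.15 to 0.24 for differently numbered ones. So few libraries cannot decide whether the numbers pair them. The replicate block gave 261 genes higher and 423 lower and 0 members called (smallest adjusted p = 0.181).

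Scaling on the endothelial markers moved the median log2 fold change of all genes from 0.039 in the main fit to -0.28. There and in other fits some log2 fold changes changed sign, all at most 0.29 in size in the main fit. None of them was called in either fit unless stated, and the cause was not tested. On the endothelial scaling they were -0.29 for Ccnd3, -0.11 for Mcm4, -0.17 for Mcm6, -0.10 for Rrm1, -0.16 for Tyms, -0.042 for Top2a, -0.24 for Bub1b, -0.18 for Aurka, -0.024 for Cdc20 and -0.047 for Cdk2, which had been called. With array weights they were -0.073 for Ccnd3, 0.13 for Mcm2, 0.0081 for Mcm3 and 0.065 for Mcm7. Without mutant 2 and wildtype 3 they were -0.0052 for Ccnd3, 0.014 for Mcm2 and 0.051 for Mcm7. Bub1b was at -0.012 with equal totals and -0.024 under median-of-ratios scaling, Aurka at -0.0017 after the second and -0.013 with the replicate block, and Mcm2 at 0.0069 after quantile scaling. Leaving out 1 library gave ranges that crossed 0 for Ccnd3 (-0.056 to 0.12), Mcm2 (-0.09 to 0.10), Mcm7 (-0.13 to 0.087), Top2a (-0.033 to 0.48), Bub1b (-0.10 to 0.11) and Aurka (-0.052 to 0.10). Over all alternatives of the single genes, 569 of 702 values kept direction and call, 88 lost a call, 11 gained one and 34 changed sign.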
